A study of Mus musculus with 6 samples.

Results

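The cells described here carried the most RNA of 6 genes that low oxygen is known to induce, Adm, Bnip3, Egln3, Ankrd37, Vegfa and Slc16a3, and stood outside the cells richest in the keratins of the transitional state between alveolar type II (ATII) and type I (ATI) cells. They were found among mouse ATII cells profiled by droplet single-cell RNA sequencing. In each of 2 of the 3 libraries, the 8% of cells with the highest summed share of unique molecular identifiers (UMIs, counted molecules) from the 6 genes were taken. Cells also in the library's top 10% for the summed share of Krt19, Lgals3, Krt8, Krt7, Cldn4 and Sfn were then left out. This second set is called the keratin list here, although Lgals3, Cldn4 and Sfn are not keratins. The rule gave 812 hypoxia-marked cells, 241 of the 5593 cells with at least 1000 UMIs in the second library and 571 of 14594 in the third, or 4.31% and 3.91%. No oxygen level was measured, so the name refers to the genes alone. The same rule set apart 803 keratin-high hypoxia-marked cells (206 and 597), 10848 intermediate cells with at least 1 UMI of the 6 genes but below the mark (3917 and 6931), and 6509 unmarked cells with none (876 and 5633), the last 2 groups also outside the keratin top 10%.

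The study grew alveolarspheres, small hollow clusters of epithelium, from mouse lung ATII cells in serum-free culture without feeder cells. Its labels list a library of freshly sorted ATII cells of young and old mice at day 0, one of day 13 cultures of young and old mice, and one of day 13 cultures of young mice only, all of genotype IL4Ra WT and all labelled as a mixed sample. The cultures had received interleukin at 10 ng/ml from day 3 (IL-4 by the series title, although its design text numbers the interleukin differently) or PBS as control. Cells from several sources were pooled in a library under multiplexing tags, per the labels. The matrix holds 0 tag features and its 3 barcode tokens match no label, so the libraries are numbered by the order in which their tokens first appear and no cell was assigned to a day, an age, a mouse or a treatment. Each library is 1 unlabelled sample and its cells are not replicates, so no test between groups of cells was run: levels are CPM, UMI counts of a gene summed over a group and scaled to a fixed total of UMIs, given for the second library first and the third after it, and intervals are exact 95% ones that cover counting error only.

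Cells sense oxygen through prolyl hydroxylases of the EGLN family, which use oxygen to mark the alpha subunits of the hypoxia-inducible factors (HIFs) for breakdown by the VHL complex. When oxygen is short the alpha subunits persist, pair with ARNT and bind DNA at a short core motif, switching on genes for glycolysis, mitophagy, matrix hydroxylation and blood vessel growth, and also some EGLN genes themselves. In the lung epithelium ATII cells make surfactant and act as progenitors of ATI cells, and the transitional state between them is known for Krt8, Krt19 and other keratins.

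The core motif reads ACGTG or GCGTG, and CACGT or CACGC when it lies on the other strand, and a CACGTG run holds it on both strands. It was searched on both strands from 250 bases before to 50 after the RefSeq start of each gene in build GRCm38.p6, a window of 300 bases. It was present in the first listed promoter of 5 of the 6 genes of the rule, and in 43.8% of the 27025 promoters listed. Stretches around a match are shown for these 5 and for 5 other genes of the results below, chosen from those with a match. The motif is in capitals and each stretch is read 5′ to 3′ on the gene's strand. Ndrg1, Ero1l and Hmox1 were among the genes with no listed promoter, and the first listed promoter of Aldoa held no match. For the rule genes they are chr7:110627573-110627637 (plus strand) for Adm, chr7:138909507-138909571 (minus) for Bnip3, chr12:54204069-54204124 (minus) for Egln3, chr8:45999851-45999886 (minus) for Ankrd37 and chr11:120949023-120949066 (plus) for Slc16a3. For the others they are chr8:124949288-124949352 (minus) for Egln1, chrX:106186939-106187003 (plus) for Pgk1, chr7:46845740-46845803 (plus) for Ldha, chr4:119108679-119108743 (plus) for Slc2a1 and chr10:59323250-59323295 (plus) for P4ha1.
Adm: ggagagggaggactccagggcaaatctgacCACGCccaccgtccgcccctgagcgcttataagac
Bnip3: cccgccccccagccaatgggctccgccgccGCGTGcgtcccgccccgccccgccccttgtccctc
Egln3: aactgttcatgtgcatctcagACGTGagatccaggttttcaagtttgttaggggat
Ankrd37: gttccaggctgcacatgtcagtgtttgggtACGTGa
Slc16a3: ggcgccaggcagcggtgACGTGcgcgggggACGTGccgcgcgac
Egln1: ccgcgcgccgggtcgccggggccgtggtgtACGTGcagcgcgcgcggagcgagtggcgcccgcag
Pgk1: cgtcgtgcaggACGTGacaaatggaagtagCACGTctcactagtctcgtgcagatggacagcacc
Ldha: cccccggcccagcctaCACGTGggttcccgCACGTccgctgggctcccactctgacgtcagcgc
Slc2a1: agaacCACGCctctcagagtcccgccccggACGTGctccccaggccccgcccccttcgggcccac
P4ha1: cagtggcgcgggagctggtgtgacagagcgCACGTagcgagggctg
In these windows the match nearest before the start lay 6 bases from it in Ankrd37, 14 in Slc16a3, 16 in P4ha1, 34 in Ldha, 35 in Bnip3, 36 in Slc2a1, 54 in Adm, 68 in Egln1, 131 in Pgk1 and 229 in Egln3. The first listed promoter of Vegfa held neither form in this window, and its second held 2 matches, 218 and 211 bases before the start. A match is a description of the letters and not a shown binding site.

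The motif was common in expressed genes at large. It was in 67.9% of the 3536 promoters of genes tested here, in 84 of 122 (68.9%) promoters of genes higher in hypoxia-marked than in unmarked cells, and in 7 of 8 (87.5%) of those lower. The ACGTG form alone was in 44 of 122 promoters of higher genes (36.1%), in 5 of 8 of lower genes (62.5%) and in 28.3% of promoters of genes tested. Of the HIF target list described below, 12 of the 14 promoters of higher genes held either form, and of the glycolysis list 9 of 13. Median GC content was 64.0% for promoters of higher genes, 61.7% for those of genes tested and 52.7% for all.

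Bnip3, which encodes a mitophagy receptor of the outer mitochondrial membrane, gave most of the RNA that chose the cells. It made up 58.7% and 61.3% of the UMIs of the 6 genes in hypoxia-marked cells, and at least 1 of its UMIs was present in 99.2% and 99.0% of them. Slc16a3, the lactate exporter MCT4, made up 13.9% and 13.3%, Egln3, the oxygen sensor PHD3, 9.57% and 8.78%, and Adm, the vasodilator peptide adrenomedullin, 7.10% and 5.18%. Vegfa, the main vascular growth factor, made up 6.62% and 6.53%, and Ankrd37, an ankyrin repeat protein, 4.11% and 4.94%. Adm UMIs were present in 41.1% and 22.4% of hypoxia-marked cells, against 5.18% and 2.32% of intermediate cells. Bnip3 was present in 82.8% and 73.5% of intermediate cells. At least 3 of the 6 genes were detected in 173 (71.8%) and 322 (56.4%) of the hypoxia-marked cells, against 807 (20.6%) and 592 (8.54%) of the intermediate cells. All 6 were detected in 6 and 9 hypoxia-marked cells, and 19 and 44 were chosen on 1 gene only. No cell type known to lack these genes was at hand, so the share that free RNA can give was not measured.

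The cut was a point on a continuous range. In the second library the last cell inside it had 1177 CPM of the 6 genes and the first outside 1176, and in the third library both had 1623. The hypoxia-marked cells spanned 1177 to 3339 CPM with a median of 1516, and 1626 to 5871 with a median of 2122. Single cells held few such molecules: the 6 genes gave a median of 9 UMIs per cell (3 to 43) in the second library and 7 (2 to 26) in the third. In summed levels, Bnip3 was at 964 and 1405 CPM in hypoxia-marked cells and at 192 and 296 in intermediate cells. Slc16a3 was at 229 and 304 CPM in hypoxia-marked cells against 76.1 and 114, Egln3 at 157 and 201 against 24.6 and 29.9, and Adm at 117 and 119 against 6.69 and 6.85. Vegfa was at 109 and 150 CPM against 34.4 and 52.4, and Ankrd37 at 67.5 and 113 against 9.71 and 18.8. Unmarked cells hold none of these by construction, so no fold against them is given for the chosen genes.

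Whether the 6 genes went together in single cells was described by choosing the cells again with 5 of them and reading the sixth. Each left-out gene was higher in the marked than in the unmarked cells in both libraries. Left-out Adm was at 76.8 and 83.4 CPM in marked cells, 7.82 and 8.34 in intermediate cells and 2.05 and 1.04 in unmarked cells, log2 differences of 4.67 and 5.37 between marked and unmarked with 1 CPM added to each level. Egln3 followed with 118 and 142 CPM in marked against 8.58 and 9.21 in unmarked cells (3.63 and 3.81), and Ankrd37 with 45.6 and 75.1 against 4.03 and 6.63 (3.21 and 3.32). Differences were smaller for Slc16a3 (1.99 and 2.14), Bnip3 (1.98 and 2.18) and Vegfa, at 77.4 and 105 CPM in marked against 25.9 and 28.0 in unmarked cells (1.54 and 1.86). Leaving out Bnip3 kept 58.5% and 56.9% of the original cells, and leaving out Adm kept 91.3% and 93.9%. When cells were instead chosen on a random 50% of their UMIs and read on the other 50%, the 6 log2 differences ran between 1.33 (Vegfa) and 4.96 (Adm) in the second library and between 1.84 and 5.01 in the third, with the same genes at the ends.

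**Figure D1:**
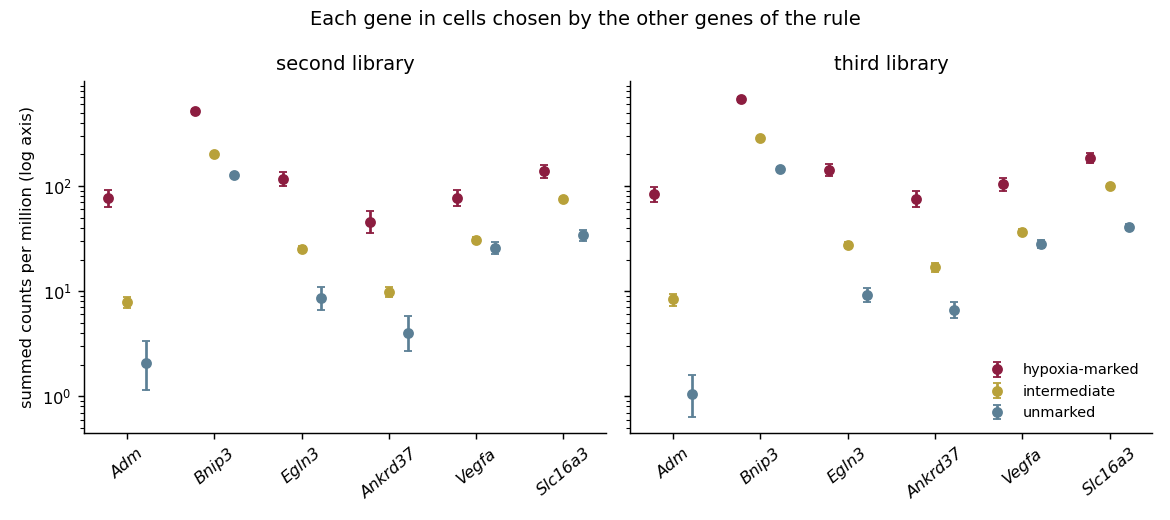
Level of each of the 6 genes (CPM, log axis) in hypoxia-marked, intermediate and unmarked cells when the cells were chosen by the other 5 genes, with 1 panel per library and bars for exact 95% Poisson intervals. Every gene is highest in the marked cells and lowest in the unmarked cells in both panels, and Adm is the furthest apart, at 76.8 against 2.05 CPM in the second library.

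Only against the top 10% were the cells low in keratins. The summed keratin list stood at 1801 and 1853 CPM in hypoxia-marked cells, 954 and 1119 in intermediate cells and 909 and 1011 in unmarked cells, against 6257 and 5776 in keratin-high hypoxia-marked cells. Of cells in the hypoxia top 8%, 206 of 447 (46.1%, interval 41.4 to 50.8) and 597 of 1168 (51.1%, 48.2 to 54.0) were in the keratin top 10%, against 6.86% and 6.42% of the other cells. The groups also differed in depth. Median UMIs per cell were 5866 and 2869 in hypoxia-marked cells, 8990 and 3744 in intermediate cells and 8058 and 3144 in unmarked cells, and the cells of the second library were deeper throughout. Mitochondrial UMIs were 0.759% and 0.605% in hypoxia-marked against 0.838% and 0.654% in unmarked cells. Malat1, a nuclear RNA, was at 9918 and 9011 CPM in hypoxia-marked cells, 14640 and 10990 in keratin-high hypoxia-marked cells and 5962 and 4482 in unmarked cells. With unmarked cells weighted to the depth of the hypoxia-marked cells, 136 genes were higher in the hypoxia-marked cells in both libraries by the limit used below, 19 of them HIF targets and 13 of glycolysis. The part of Malat1 in the differences was not tested. Of the 812 cells, 5 carried a barcode also seen in another library, 3 of them in the other library used.

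The cells carried the ATII markers. The 16 markers fixed for ATII summed to 121800 and 100800 CPM in hypoxia-marked cells and 181300 and 164700 in unmarked cells, with 16 and 15 of them at 20 CPM or more in the hypoxia-marked cells. Markers of T and NK cells summed to 0 in both libraries, and those of dendritic cells to 0 and 0.560 CPM. Sums for basal cells (1.97 and 7.84 CPM), neuroendocrine cells (3.28 and 1.12), smooth muscle (3.28 and 2.80), mesothelium (3.93 and 8.40), fibroblasts (11.8 and 20.2), ciliated cells (14.4 and 24.1), endothelium (39.97 and 24.1) and alveolar macrophages (47.8 and 19.6) were also low. Neutrophil markers summed to 53.1 and 13.5 CPM in hypoxia-marked cells against 13.9 and 16.9 in unmarked cells, nearly all of it Retnlg, with S100a8 and S100a9 at 0. Goblet markers summed to 44.6 and 15.7 CPM against 12.5 and 12.7, led by Tff2 in the hypoxia-marked cells, and airway secretory markers to 347 and 139 against 296 and 172. The part of such cells in the results was not tested. Markers of B cells summed to 121 and 109 CPM in hypoxia-marked against 122 and 165 in unmarked cells, and those of monocytes, mostly Lyz2, which ATII cells make, to 226 and 128 against 253 and 165. The erythroid and platelet sum was Pf4 alone, at 737 and 797 CPM in hypoxia-marked against 745 and 781 in unmarked cells.

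Against unmarked cells of the same library, 157 of 4454 genes (3.52%) were at least 2-fold higher in hypoxia-marked cells in both libraries, the 6 rule genes among them, and 11 (0.247%) at least 2-fold lower, counting genes at 20 CPM or more in either group in both libraries. These shares are the background for the list counts that follow, and the median log2 fold of all genes tested was 0.05 and 0.03. Ranked by the smaller of the folds in the 2 libraries, the gene furthest up outside the rule was the HIF target Ndrg1. Of a list of 39 other HIF targets, 25 could be tested, 20 were higher and 0 lower, with a list median of 1.65 and 2.03. Many entered through the hypoxia-marked cells, where 25 and 28 of the 39 reached 20 CPM, against 13 and 14 in unmarked cells, and a gene that enters so must be higher. All 39 summed to 6058 and 5927 CPM in hypoxia-marked and 1693 and 1462 in unmarked cells. The cells were picked on genes of the same pathway, so the count describes the cells chosen and lends the label no independent weight. It was 9 when every cell was thinned to 1000 UMIs before the choice, with 56 genes higher in all, and 14 when Bnip3 was left out of the rule, with 67 genes higher in all.

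Ndrg1, a stress-induced gene of the NDRG family, was at 83.2 and 93.6 CPM in hypoxia-marked cells and 1.67 and 1.36 in unmarked cells (log2 fold 4.98, interval without added counts 4.79 to 6.63, and 5.33, 5.50 to 6.76). Ero1l, an endoplasmic reticulum oxidase that forms disulfide bonds, was at 649 and 450 CPM against 55.6 and 27.1 (3.52 and 4.01). Both were scarcer in unmarked cells, where Ndrg1 had 12 and 26 UMIs in all.

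A further group of the list acts on collagen and matrix. Plod2, a collagen lysyl hydroxylase, was at 37.4 and 62.8 CPM in hypoxia-marked cells and 2.92 and 8.21 in unmarked cells (3.29 and 2.79). The prolyl hydroxylases P4ha1 (310 and 233 CPM against 105 and 57.3) and P4ha2 (140 and 145 against 37.5 and 35.6) differed by 1.56 and 2.00 and by 1.88 and 1.99. Lox, a collagen crosslinking oxidase, had 0 UMIs in both groups and both libraries, which in hypoxia-marked cells allows levels of up to 2.42 and 2.07 CPM.

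Genes acting in mitochondria or metabolism were also higher. Bnip3l, the mitophagy receptor closest to Bnip3, was at 342 and 295 CPM in hypoxia-marked cells and 64.2 and 57.9 in unmarked cells (2.40 and 2.33). Fam162a (1129 and 1055 against 323 and 221 CPM) and Higd1a (882 and 780 against 258 and 190), both mitochondrial proteins, differed by 1.80 and 2.25 and by 1.77 and 2.03. Pdk1, the kinase that shuts pyruvate out of the citric acid cycle, was at 51.8 and 65.0 CPM against 15.6 and 14.7 (1.67 and 2.07). Gbe1, the glycogen branching enzyme, differed by 2.76 and 3.25, Ak4, a mitochondrial adenylate kinase, by 2.74 and 2.80, and Selenbp1, a selenium binding protein, by 2.25 and 2.29, at 1086 and 1504 CPM in hypoxia-marked cells. Hilpda, which blocks lipolysis, differed by 1.55 and 1.94.

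The remaining higher targets included regulators. The transcriptional repressors Mxi1 (1.42 and 2.08) and Bhlhe40 (1.29 and 1.46), the histone demethylase Kdm3a (1.57 and 1.48), the mTORC1 inhibitor Ddit4 (1.12 and 1.43), the Notch effector Rbpj (1.24 and 1.05) and the secreted Stc2 (1.65 and 3.08) passed the 2-fold limit in both libraries. Of the 5 tested genes that did not, Nrn1 was close, at 0.97 and 1.82, and Wsb1 was at 1.03 and 0.76. Insig2 was at 0.61 and 0.46, Cited2, a HIF-induced inhibitor of HIF's coactivators, at 0.38 and 0.27, and Tfrc, the transferrin receptor, at 0.10 and -0.03. Among those too scarce to be tested in both libraries, Ndufa4l2 had 17.0 and 23.5 CPM in hypoxia-marked and 0.694 and 0.784 in unmarked cells, Pfkfb3 19.0 and 24.7 against 2.78 and 2.46, and Car9, the tumour-associated carbonic anhydrase, 1.97 and 3.92 against 1.39 and 0.941.

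The oxygen-sensing genes themselves split. Egln1, the main HIF prolyl hydroxylase, was at 307 and 271 CPM in hypoxia-marked cells and 47.4 and 35.3 in unmarked cells (2.67, interval 2.49 to 2.90, and 2.90, 2.77 to 3.11), and was the only one of the 5 tested genes of that list of 11 past the limit in both libraries, with a list median of 0.88 and 0.39. Hif1a, whose protein rather than RNA is controlled by oxygen, was at 81.3 and 69.5 CPM against 83.5 and 65.8 (-0.04, interval -0.33 to 0.24, and 0.08, -0.20 to 0.35). Egln2 was at 34.7 and 44.8 CPM against 41.5 and 52.99. Arnt, the shared beta subunit, was at 38.0 and 21.3 CPM against 17.2 and 16.0, and Vhl at 23.6 and 29.7 against 12.4 and 13.3. Outside the 20 CPM limit, Hif3a, an alpha subunit known to be induced by hypoxia, had 13.8 and 10.1 CPM in hypoxia-marked against 0.972 and 0.784 in unmarked cells, and Epas1, which encodes HIF-2 alpha, 12.5 and 8.40 against 9.86 and 8.78.

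Genes of most steps of glycolysis were higher. Of 21 genes for glucose uptake and glycolysis, 18 could be tested, 14 were higher and 0 lower, with a list median of 1.39 and 1.55, and the list summed to 34940 and 40920 CPM in hypoxia-marked cells against 12480 and 11150 in unmarked cells. The count was 4 in cells thinned to 1000 UMIs and 9 with Bnip3 left out of the rule. Slc2a1, the glucose transporter GLUT1, was at 103 and 92.4 CPM in hypoxia-marked cells and 30.8 and 19.3 in unmarked cells (1.71 and 2.20). Enzymes in the order of the pathway were Gpi1, at 1210 and 1225 CPM against 420 and 339, Pfkp at 127 and 101 against 41.4 and 23.3, Aldoa at 5084 and 5047 against 2258 and 1438, and Tpi1 at 1705 and 1711 against 785 and 690. Gapdh was at 11050 and 14980 CPM against 3515 and 3611 (1.65 and 2.05), and Pgk1, the first step that yields ATP, at 2048 and 2528 against 619 and 631 (1.73 and 2.00). Pkm was at 1844 and 2166 CPM against 669 and 737. Ldha, which turns pyruvate into lactate, was at 3783 and 3401 CPM against 1813 and 1405 (1.06 and 1.27). Bsg, the partner protein that carries the lactate exporters to the membrane, was at 6588 and 7948 CPM against 1626 and 1597 (2.02 and 2.31).

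The 4 tested members of the list that did not pass in both libraries were Hk2, Hk1, Ldhb and Slc16a1. Hk2, a hexokinase, was at 45.9 and 79.6 CPM in hypoxia-marked cells and 25.3 and 27.5 in unmarked cells (0.83 and 1.50), and Hk1 differed by 0.59 and 1.07. Ldhb, the isoform that favours lactate use, was at 100 and 66.7 CPM against 151 and 78.7 (-0.58 and -0.24), and Slc16a1, the lactate carrier MCT1, differed by 0.13 and 0.41. Nuclear genes of the respiratory chain gave no call: 24 of 24 were tested, 0 passed in either direction, and their median was -0.30 and -0.19. Reads of Gapdh and Eno1 can be shared with near-identical copies, and so can those of Gsta1 with Gm3776 and of Chil4 with its paralogues, so their levels are less certain than the others.

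**Figure D2:**
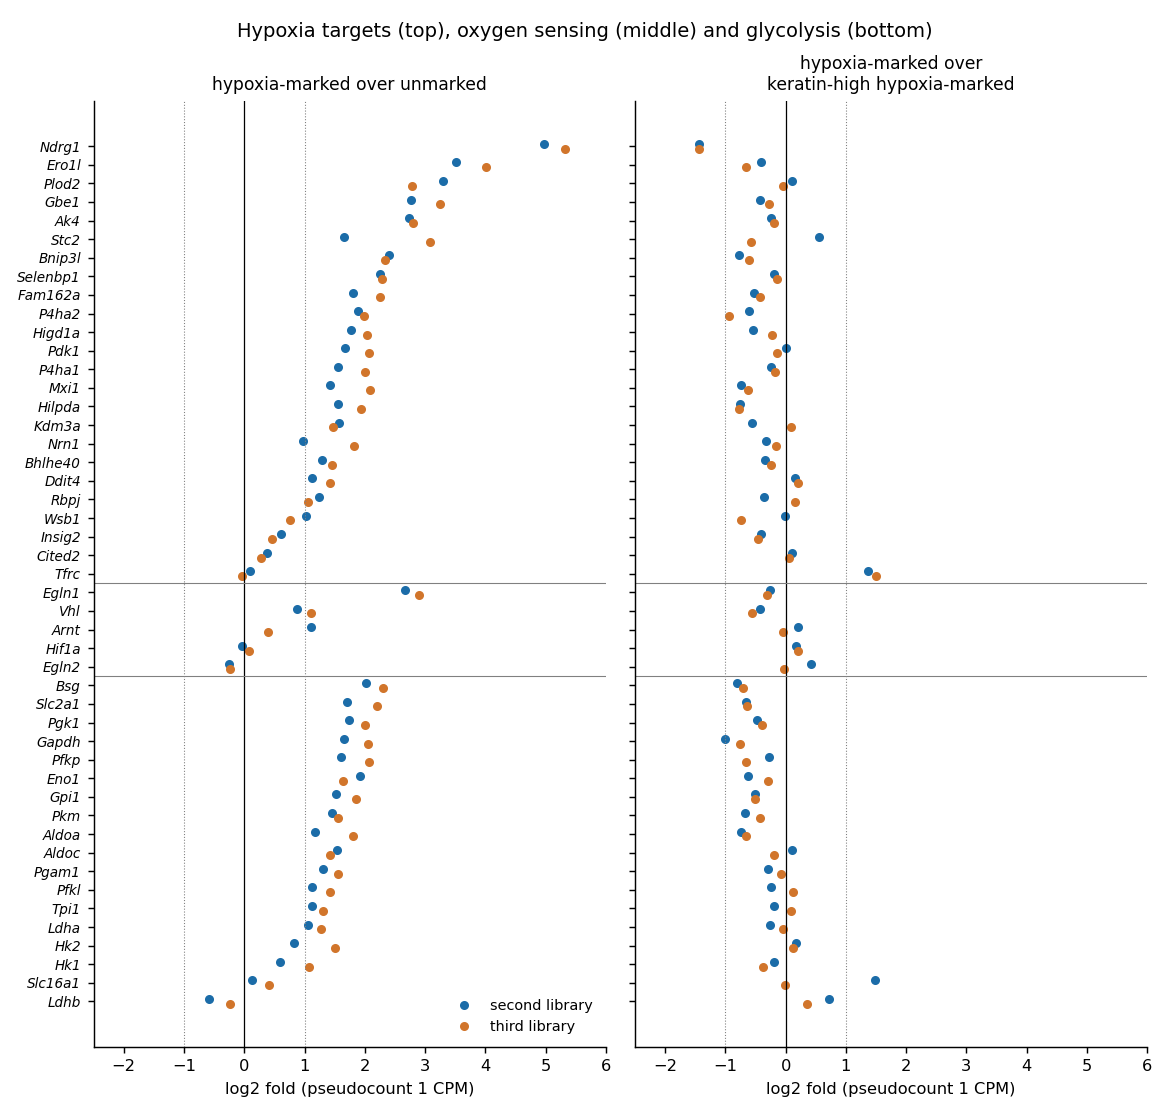
Log2 fold of the tested HIF targets outside the rule (all but 1), of each oxygen-sensing gene and glycolysis gene, with 1 point per library, for hypoxia-marked over unmarked cells on the left and over keratin-high hypoxia-marked cells on the right; dotted lines mark a 2-fold difference. On the left most points lie right of the upper line, with Ndrg1 at 4.98 and 5.33 and Hif1a at -0.04 and 0.08, and on the right most lie slightly below 0.

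Genes of metal and oxidative stress were the next group. Of 17 NRF2 and metal response genes, 14 were tested, 4 were higher and 0 lower (median 0.60 and 0.68). Hmox1, the haem-degrading enzyme heme oxygenase, was at 902 and 481 CPM in hypoxia-marked cells and 75.8 and 34.0 in unmarked cells (3.55, interval 3.43 to 3.72, and 3.78, 3.67 to 3.97). The metallothioneins Mt1 (3849 and 4440 against 481 and 386 CPM) and Mt2 (611 and 513 against 55.7 and 35.6) differed by 3.00 and 3.52 and by 3.43 and 3.81. Gclm, a subunit of the enzyme that starts glutathione synthesis, was at 400 and 278 CPM against 151 and 85.6 (1.40 and 1.69). Other targets of NRF2 did not pass: Txnrd1 was at 0.79 and 0.94 and Prdx1 at 0.03 and -0.12, while Nqo1 was scarce, at 10.48 and 6.16 CPM against 2.92 and 3.03. Hmox1 and the metallothioneins are known to respond to other stresses too. The list summed to 31630 and 31060 CPM in hypoxia-marked cells. Unmarked cells had 20570 and 14660 CPM outside the keratin top 10% and 41910 and 32280 within it.

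Of 15 genes of p53 and CDK inhibition, 11 were tested and the 3 that were higher all encode inhibitors of the cell cycle. Cdkn1a, or p21, was at 234 and 247 CPM in hypoxia-marked cells and 89.2 and 70.4 in unmarked cells (1.38 and 1.80), Cdkn1b, or p27, at 75.4 and 63.3 against 31.9 and 29.6 (1.21 and 1.07), and Cdkn2b, or p15, at 64.9 and 66.7 against 29.2 and 28.0 (1.13 and 1.22). The list median was 0.29 and 0.57 with 0 genes lower, and Gdf15, a p53 and stress target, was at 171 and 74.0 CPM against 343 and 95.1 (-1.0 and -0.36). The list summed to 1075 and 1008 CPM in hypoxia-marked cells. Unmarked cells had 913 and 665 CPM outside the keratin top 10% and 1757 and 1546 within it. Of 18 immediate early genes, 13 were tested and 2 were higher (median 0.26 and 0.29), Fosl2 at 41.3 and 33.1 CPM against 14.7 and 9.88 and Ier3 at 937 and 909 against 307 and 350. Fosl2 was tested only through the hypoxia-marked cells in both libraries and had to be higher. None of the 14 tested integrated stress response genes passed in both libraries (0 higher and 0 lower, median -0.07 and 0.22).

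Changes ran in steps along the range of the 6 genes. Intermediate cells were split at their own median share of the 6 genes, giving 4 steps of 876, 1959, 1958 and 241 cells in the second library and 5633, 3466, 3465 and 571 in the third. Ndrg1 was at 1.67, 1.41, 7.16 and 83.2 CPM over the steps of the second library and at 1.36, 2.10, 11.2 and 93.6 in the third. Most of its gain lay in the last step. Pgk1 climbed at every step, at 619, 779, 1200 and 2048 CPM in the second library and 631, 955, 1562 and 2528 in the third. Egln1 did likewise, at 47.4, 62.9, 117 and 307 CPM and at 35.3, 52.4, 95.5 and 271. Hmox1 was at 75.8, 58.9, 180 and 902 CPM and at 34.0, 43.8, 116 and 481, and Mt1 at 481, 434, 1001 and 3849 and at 386, 512, 1196 and 4440, so both were lowest in the lower intermediate cells of the second library. Krt19 was at 159, 164, 210 and 460 CPM and at 166, 184, 263 and 515. Surfactant gene Sftpc was lower at each step, at 141700, 139100, 129500 and 95180 CPM and at 135700, 119400, 108400 and 79560. Top2a, a gene of dividing cells, had its peak in the middle, at 74.9, 106, 128 and 109 CPM and at 82.1, 172, 137 and 96.4. Median UMIs per cell over the steps were 8058, 9859, 8203 and 5866 and 3144, 4067.5, 3465 and 2869, and cells with fewer UMIs reach 0 of the 6 genes more easily. Cells with fewer UMIs also pass the cut on fewer molecules, at the least 3 and 2 UMIs of the 6 genes. The part of depth in these steps was not tested.

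**Figure D3:**
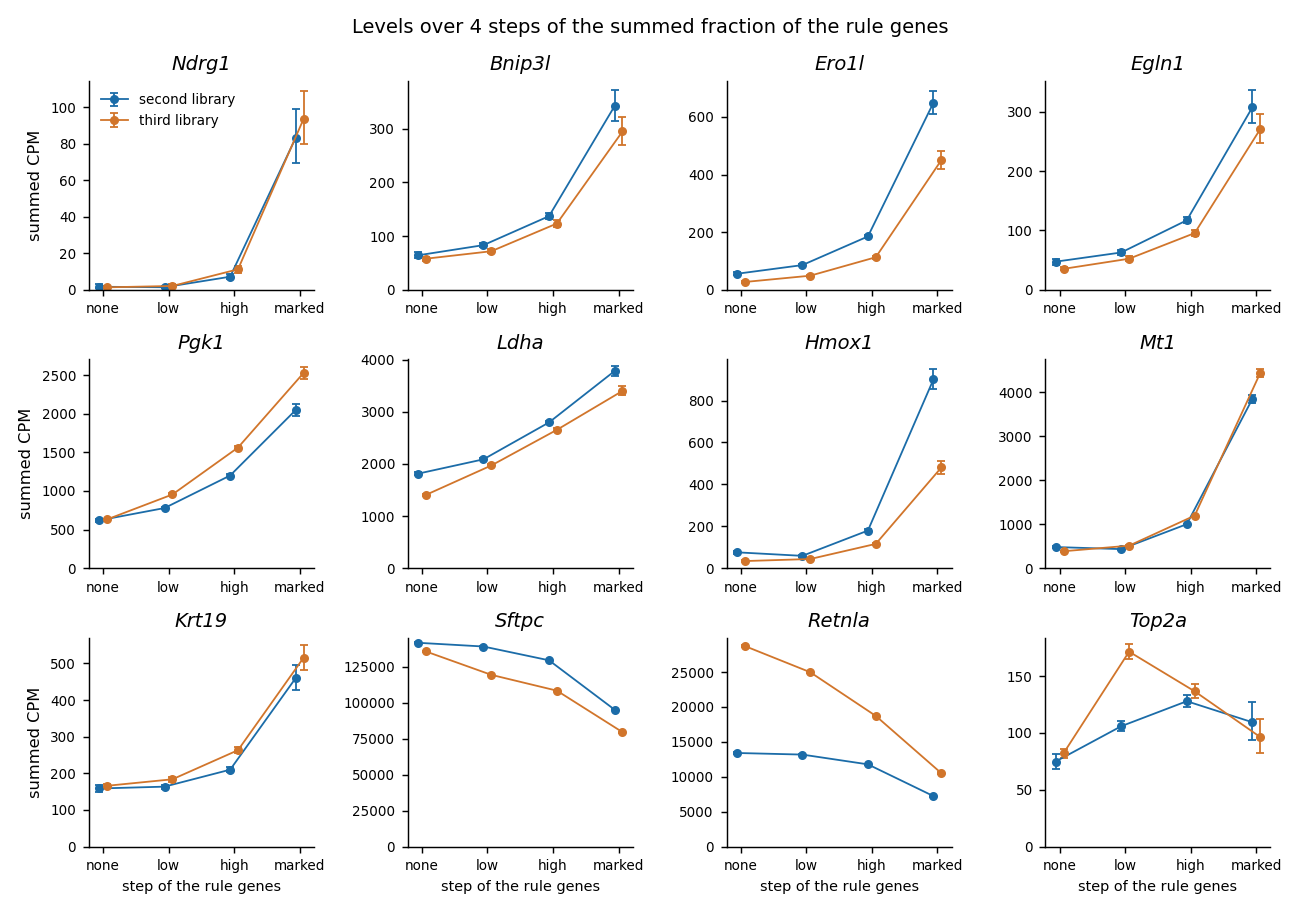
Levels (CPM) of 12 genes, 1 panel each, over 4 steps of the summed share of the 6 genes: unmarked cells, intermediate cells below and above their median, and hypoxia-marked cells, with 1 line per library and bars for exact 95% Poisson intervals. Pgk1, Egln1 and Ldha climb at each step, Ndrg1 and Bnip3l gain most at the last step, and Sftpc and Retnla are lower at each step in both libraries.

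Of 16 ATII markers 15 were tested, 1 was lower, 0 were higher and 14 did not pass, with a median of -0.33 and -0.37. The lower gene was Sftpa1, which encodes surfactant protein A, at 6215 and 3968 CPM in hypoxia-marked cells and 12840 and 8889 in unmarked cells (-1.05 and -1.16). Among cells of 3000 or more UMIs, 0 genes were lower in both libraries, and Sftpa1 stood at -0.91 and -0.76. Sftpc was at 95180 and 79560 CPM against 141700 and 135700 (-0.57 and -0.77) and Sftpb at 2640 and 1777 against 3545 and 2097 (-0.43 and -0.24). Sftpc alone holds so many UMIs that a lower level leaves room for every other gene's CPM, a limit that scaling by TMM factors addresses: it shifted these log2 folds by -0.08 and -0.02. Abca3, the lipid pump of lamellar bodies, was at 59.6 and 47.6 CPM against 69.7 and 69.8, and Nkx2-1, the lung lineage factor, at 147 and 205 against 148 and 269. Of 18 lamellar body and lysosome genes 16 were tested and 0 passed (median -0.06 and -0.08). Of 24 lipid and cholesterol genes 20 were tested and 1 was higher (median 0.16 and -0.07), Scd2, a fatty acid desaturase, at 366 and 459 CPM against 177 and 203. Of 11 lung lineage factors 9 were tested and 1 was higher (median 0.02 and -0.15), the epithelial factor Elf3 at 148 and 138 CPM against 56.1 and 45.2.

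Some ATI and transitional genes were higher even with the keratin top 10% left out. Of 16 ATI markers 10 were tested, 3 were higher and 0 lower (median 0.79 and 0.83), and 1 of the 3 is Vegfa, a rule gene. Hopx was at 96.3 and 207 CPM in hypoxia-marked cells and 26.0 and 87.6 in unmarked cells (1.85 and 1.23), and Akap5 at 45.2 and 110 against 11.9 and 45.9 (1.84 and 1.25). Ager, the defining ATI receptor, was at 217 and 484 CPM against 137 and 532 (0.66 and -0.14). Aqp5 differed by -0.29 and -0.32. Of 20 transitional genes 17 were tested, 5 were higher and 0 lower (median 0.70 and 0.58). Krt19 was at 460 and 515 CPM against 159 and 166 (1.53 and 1.63), Lgals3, galectin-3, at 423 and 434 against 137 and 88.1 (1.62 and 2.29), S100a6, a calcium-binding protein, at 66.8 and 70.0 against 18.1 and 7.32 (1.83 and 3.09), and the EGF receptor ligand Areg at 79.3 and 86.8 against 18.8 and 17.9 (2.02 and 2.21), with Cdkn1a the other. S100a6 and Areg were under 20 CPM in unmarked cells in both libraries, so they were tested only through the hypoxia-marked cells and had to be higher. Krt8 was at 625 and 583 CPM against 388 and 483 (0.69 and 0.27). The rule left the highest values of Krt19 and Lgals3 out of both groups. With unmarked cells weighted to the keratin level of the hypoxia-marked cells, S100a6 stood at -0.13 and 1.61 and Hopx at 0.65 and 0.32, so neither passed in both libraries. Among cells above their library's median Retnla share, S100a6 stood at 0.08 and -1.61 and Hopx at 1.60 and -0.60, so the direction turned in the third library.

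Genes known to respond to IL-4 and IL-13 in epithelium had negative medians in both libraries. Of 21, 5 were tested, and 0 passed the limit in both libraries, with a median of -0.52 and -1.32. Retnla, the secreted protein RELM-alpha, was at 7228 and 10510 CPM in hypoxia-marked cells and 13410 and 28740 in unmarked cells (-0.89, interval -0.92 to -0.86, and -1.45, -1.47 to -1.43). Chia1, an acidic chitinase, was at 868 and 453 CPM against 1215 and 1130 (-0.48 and -1.32), Slc26a4, the anion exchanger pendrin, at 104 and 56.6 against 149 and 176, and Socs2, a cytokine signalling inhibitor, at 124 and 76.8 against 183 and 165. Treatment could not be assigned to cells, so differences in treatment and in the 6 genes cannot be told apart here. Of 19 inflammatory genes 12 were tested and 1 was lower (median -0.53 and -0.31), the neutrophil-attracting chemokine Cxcl5, at 413 and 352 CPM against 1055 and 902 (-1.35 in both). Among cells of 3000 or more UMIs Cxcl5 stood at -1.16 and -0.82 and no longer passed. Among cells above their library's median Retnla share, 67 and 137 hypoxia-marked cells, 116 genes were higher than in unmarked cells, 19 of them HIF targets and 13 of glycolysis. Among cells at or below it, 174 and 434, the counts were 141, 22 and 14.

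Dividing cells were present. Of 20 mitosis genes 12 were tested and 0 passed (median 0.28 and -0.01), and the list summed to 853 and 939 CPM in hypoxia-marked cells against 717 and 985 in unmarked and 1042 and 1590 in intermediate cells. Mki67 was at 42.6 and 36.4 CPM against 54.3 and 33.7 in unmarked cells, and Top2a at 109 and 96.4 against 74.9 and 82.1. Of 18 S phase genes 3 were tested and 0 passed (median -0.38 and -0.56).

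The other lists held 0 genes past the limit in both libraries. Angiogenic ligands and receptors, with 6 of 20 tested, had a median of 0.15 and 0.26: Vegfb was at 165 and 151 CPM in hypoxia-marked and 171 and 96.6 in unmarked cells. Mitophagy and autophagy genes (12 of 17 tested) had a median of 0.11 and -0.03, and endoplasmic reticulum chaperones (15 of 18) of -0.21 and -0.26. Genes of MHC class II (6 of 9) had a median of -0.17 and -0.50, of TGF-beta and matrix (11 of 20) of 0.29 and 0.30, of Wnt, Notch, BMP and FGF signalling (9 of 22) of -0.20 and -0.15, and of interferon response (3 of 13) of -0.25 and -0.13. Airway secretory markers (4 of 10) had a median of 0.03 and -0.41, and genes of RNA quality (5 of 7) of 0.25 and 0.35. One gene each was tested of the monocyte, B cell and platelet markers, and 0 of the other cell type lists named above.

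Genes outside all lists were named as the 12 most changed in each direction at 50 CPM or more. Those higher in hypoxia-marked cells were led by Mgarp, a mitochondrial protein known to be regulated by HIF-1, at 64.2 and 72.8 CPM against 4.03 and 4.08 in unmarked cells (3.70 and 3.86). Gm15283, a predicted gene, was at 121 and 119 CPM against 10.6 and 10.9, Prelid2 at 140 and 175 against 17.9 and 16.9 and Qpct, a glutaminyl cyclase, at 70.8 and 62.2 against 11.4 and 3.87. Tmem213, a membrane protein, reached the highest level of these, 463 and 956 CPM against 80.7 and 125 (2.50 and 2.93). The others were Rgcc, F3 (tissue factor, which starts coagulation), Ahnak, Jmjd6, Fgfbp1, Ccdc186 and Gtf2e2, with log2 folds between 1.46 and 3.06. F3 stood at 100 and 50.4 CPM against 20.3 and 7.47. Mgarp, Gm15283, Prelid2 and Qpct were under 20 CPM in unmarked cells in both libraries. They were tested only through the hypoxia-marked cells and had to be higher. Only 3 genes outside all lists were lower at 50 CPM or more: Rgs4, a brake on G protein signalling, at 65.5 and 57.7 CPM against 210 and 169 (-1.66 and -1.53), Srm, which makes spermidine, at 26.9 and 24.7 against 87.4 and 66.0 (-1.66 and -1.38), and Rexo2, a mitochondrial exonuclease, at 34.7 and 30.3 against 82.2 and 68.6 (-1.22 and -1.15). None of the 3 passed in both libraries among cells of 3000 or more UMIs, where Rgs4 stood at -1.36 and -0.98 and Srm at -1.34 and -0.91.

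**Figure D4:**
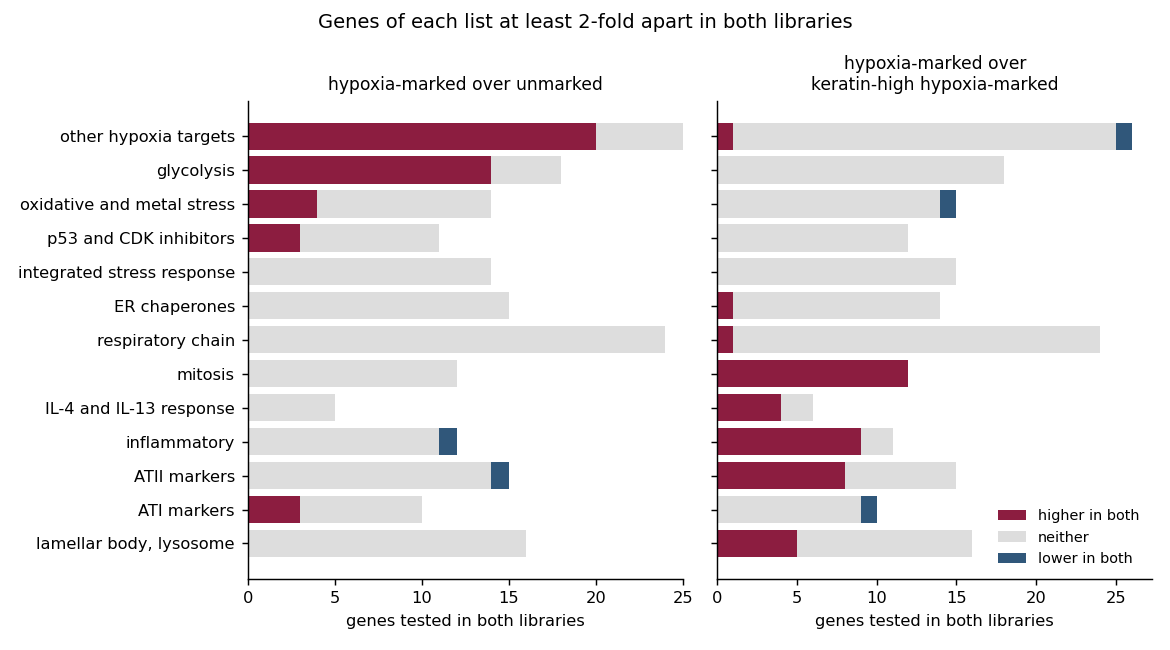
Number of tested genes that were at least 2-fold higher, at least 2-fold lower or neither in both libraries, for a selection of the pathway and marker lists. Hypoxia-marked over unmarked cells are on the left and over keratin-high hypoxia-marked cells on the right. On the left 20 of 25 other HIF targets and 14 of 18 glycolysis genes are higher. On the right 9 of 11 inflammatory genes and 8 of 15 ATII markers are higher. The 12 of 12 mitosis genes higher on the right were nearly all tested only because they reached 20 CPM in the hypoxia-marked cells.

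The keratin-high cells with the same hypoxia mark were a distinct comparison. Against them, 119 of 4403 genes (2.7%) were at least 2-fold higher in hypoxia-marked cells in both libraries and 54 (1.23%) lower, the 6 keratin-list genes of the rule among the lower. The median fold of all genes was 0.06 and 0.00, and under TMM scaling, which shifted folds by -0.19 and -0.07, the counts were 87 and 70. HIF targets were close between the 2 groups: of 26 tested, 1 was higher and 1 lower, with a median of -0.34 and -0.26. Of the rule genes 0 of 6 passed (median -0.16 and -0.26). Bnip3 was at 964 and 1405 CPM in hypoxia-marked and 1277 and 1777 in keratin-high hypoxia-marked cells (-0.41 and -0.34), Adm at 117 and 119 against 187 and 189 (-0.68 and -0.67), and Slc16a3 at 229 and 304 against 146 and 205 (0.65 and 0.57). The lower HIF target was Ndrg1, at 83.2 and 93.6 CPM against 226 and 253 (-1.43 in both), and the higher one Tfrc (1.37 and 1.50). Glycolysis had 0 of 18 past the limit (median -0.28 and -0.33), oxygen sensing 0 of 7, and Gapdh was at 11050 and 14980 CPM against 22180 and 25370 (-1.01 and -0.76).

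What set the groups apart were keratins, ATII genes, inflammatory genes and dividing cells. Keratins were used by the rule, so Krt19, at 460 and 515 CPM in hypoxia-marked against 1649 and 1705 in keratin-high hypoxia-marked cells, is a description of the choice. Of 19 transitional genes tested 9 were lower (median -0.76 and -0.82), and outside the rule's own 6 these were S100a6, at 66.8 and 70.0 CPM against 592 and 422 (-3.13 and -2.57), Sprr1a, a cornified envelope protein, at 47.2 and 26.9 against 254 and 110 (-2.40 and -1.99), and Msln, mesothelin, at 3.28 and 8.40 against 47.6 and 43.0. Msln was tested only through the keratin-high hypoxia-marked cells in both libraries and had to be lower. Of 10 ATI markers 1 was lower (median -1.08 and -0.62), the chloride channel family gene Clic5, at 67.5 and 99.2 CPM against 171 and 212.

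Of 15 ATII markers 8 were higher and 0 lower (median 1.12 and 1.02). Sftpa1 was at 6215 and 3968 CPM in hypoxia-marked and 1740 and 1112 in keratin-high hypoxia-marked cells (1.84 and 1.83), Slc34a2, the phosphate carrier of ATII cells, at 391 and 295 against 77.9 and 71.5 (2.31 and 2.03), Abca3 at 59.6 and 47.6 against 21.1 and 18.6 (1.46 and 1.31) and Lamp3 at 342 and 301 against 145 and 148 (1.23 and 1.02). Sftpc was just short of the limit, at 95180 and 79560 CPM against 49310 and 42620 (0.95 and 0.90). The others were Etv5, Cxcl15, Fasn and Lyz2. Lamellar body genes were higher in 5 of 16 and lung lineage factors in 3 of 9, Etv5, Sox9 and Rbpjl. Lipid genes were higher in 2 of 20, Fasn, the fatty acid synthase, and Elovl1, an elongase.

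Of 11 inflammatory genes 9 were higher (median 1.98 and 1.66), with 11 and 12 of the list at 20 CPM in hypoxia-marked and 6 and 8 in keratin-high hypoxia-marked cells. Cxcl5 was at 413 and 352 CPM in hypoxia-marked and 32.1 and 25.6 in keratin-high hypoxia-marked cells (3.65, interval 3.20 to 4.22, and 3.73, 3.34 to 4.26), although it was lower than in unmarked cells. The alarmin Il33 was at 91.1 and 152 CPM against 16.5 and 32.0, the glycoprotein Lrg1 at 493 and 512 against 113 and 97.6 and Lcn2, an iron-sequestering defence protein, at 8254 and 6211 against 3154 and 2305. Of 6 IL-4 and IL-13 response genes 4 were higher (median 1.51 and 1.36), Retnla at 7228 and 10510 CPM against 1058 and 1062 (2.77 and 3.31), Chia1 (1.10 and 1.78), Slc26a4 (1.92 and 1.69) and Socs2 (2.23 and 1.03). Of 6 MHC class II genes 2 were higher, H2-Aa, at 192 and 143 CPM against 78.8 and 66.2, and H2-Eb1.

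Mitosis genes reached 20 CPM in hypoxia-marked cells (12 and 15 of 20) more than in keratin-high hypoxia-marked cells (2 and 1), so nearly all that were tested entered through the hypoxia-marked cells and had to be higher, as 12 of 12 were (median 1.50 and 2.49). All 20 summed to 853 and 939 CPM in hypoxia-marked against 279 and 179 in keratin-high hypoxia-marked cells. Top2a was at 109 and 96.4 CPM in hypoxia-marked and 24.7 and 14.5 in keratin-high hypoxia-marked cells (2.10 and 2.65), Mki67 at 42.6 and 36.4 against 16.5 and 5.81 (1.32 and 2.46) and Birc5, survivin, at 72.1 and 85.7 against 18.3 and 11.0 (1.92 and 2.85). Of 4 S phase genes 2 were higher, Tyms and Dut. With the 25% of cells highest in cycling genes left out of both groups, 0 mitosis genes passed and 78 genes were higher in all, and Mki67 stood at -0.17 in the second library.

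Few stress genes passed. Of 15 NRF2 and metal response genes 1 was lower (median -0.63 and -0.75), the glutathione transferase Gsta1, at 9.17 and 20.2 CPM in hypoxia-marked and 196 and 108 in keratin-high hypoxia-marked cells (-4.28 and -2.36). Hmox1 was at 902 and 481 CPM against 1607 and 1183 (-0.83 and -1.30) and Mt1 at 3849 and 4440 against 6011 and 7579 (-0.64 and -0.77). The immediate early gene Dusp1, a MAP kinase phosphatase, was at 62.3 and 55.5 CPM against 145 and 116 (-1.20 and -1.05). Integrated stress response genes had 0 of 15 past the limit (median -0.45 and -0.62) and genes of p53 and CDK inhibition 0 of 12. Single genes of other lists passed as well: Pdia6, a protein folding enzyme, at 230 and 184 CPM against 102 and 87.7, Cycs, cytochrome c, at 144 and 81.8 against 70.5 and 34.3, the noncoding RNA Meg3 at 255 and 220 against 62.3 and 59.8, and Pf4 at 737 and 797 against 212 and 220 were higher. The airway genes Scgb3a1 (47.8 and 24.7 against 0.916 and 6.97 CPM) and Cldn10 (73.4 and 64.4 against 14.7 and 13.4) were higher too, and Cd68, at 12.5 and 8.96 CPM against 30.2 and 29.6, was lower. Scgb3a1, Cldn10 and Cd68 reached 20 CPM only in the higher group, so the limit fixed their direction.

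Outside the lists, the genes most above the keratin-high hypoxia-marked cells were Rgs4 (2.37 and 4.42), Pigr, which carries IgA across epithelium, at 655 and 257 CPM against 129 and 49.4, the chemokine Cxcl3 at 323 and 155 against 64.1 and 30.8, Noxo1, Cenpa, Hmmr, Arg2, Chil4, Cd177, Lrrk2, Cdca8 and Chil1. Arg2, the mitochondrial arginase, was at 97.0 and 71.7 CPM against 23.8 and 20.9, and the chitinase-like Chil1 at 5312 and 4105 against 1993 and 1404. Genes under 20 CPM in the keratin-high hypoxia-marked cells, Rgs4 among them, were tested only through the hypoxia-marked cells and had to be higher. The genes most below them were Gm3776, Phospho1, S100a14, Ahnak, Cyp2s1, Ptpn14, Fgfbp1, Eps8l2, Cryab, Tinagl1, Rab11fip1 and Pgrmc1, with log2 folds between -3.76 and -1.35. The small heat shock protein Cryab was at 171 and 181 CPM in hypoxia-marked against 556 and 481 in keratin-high hypoxia-marked cells. Ahnak and Fgfbp1 were thus lower than in the keratin-high cells and higher than in unmarked cells.

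**Figure D5:**
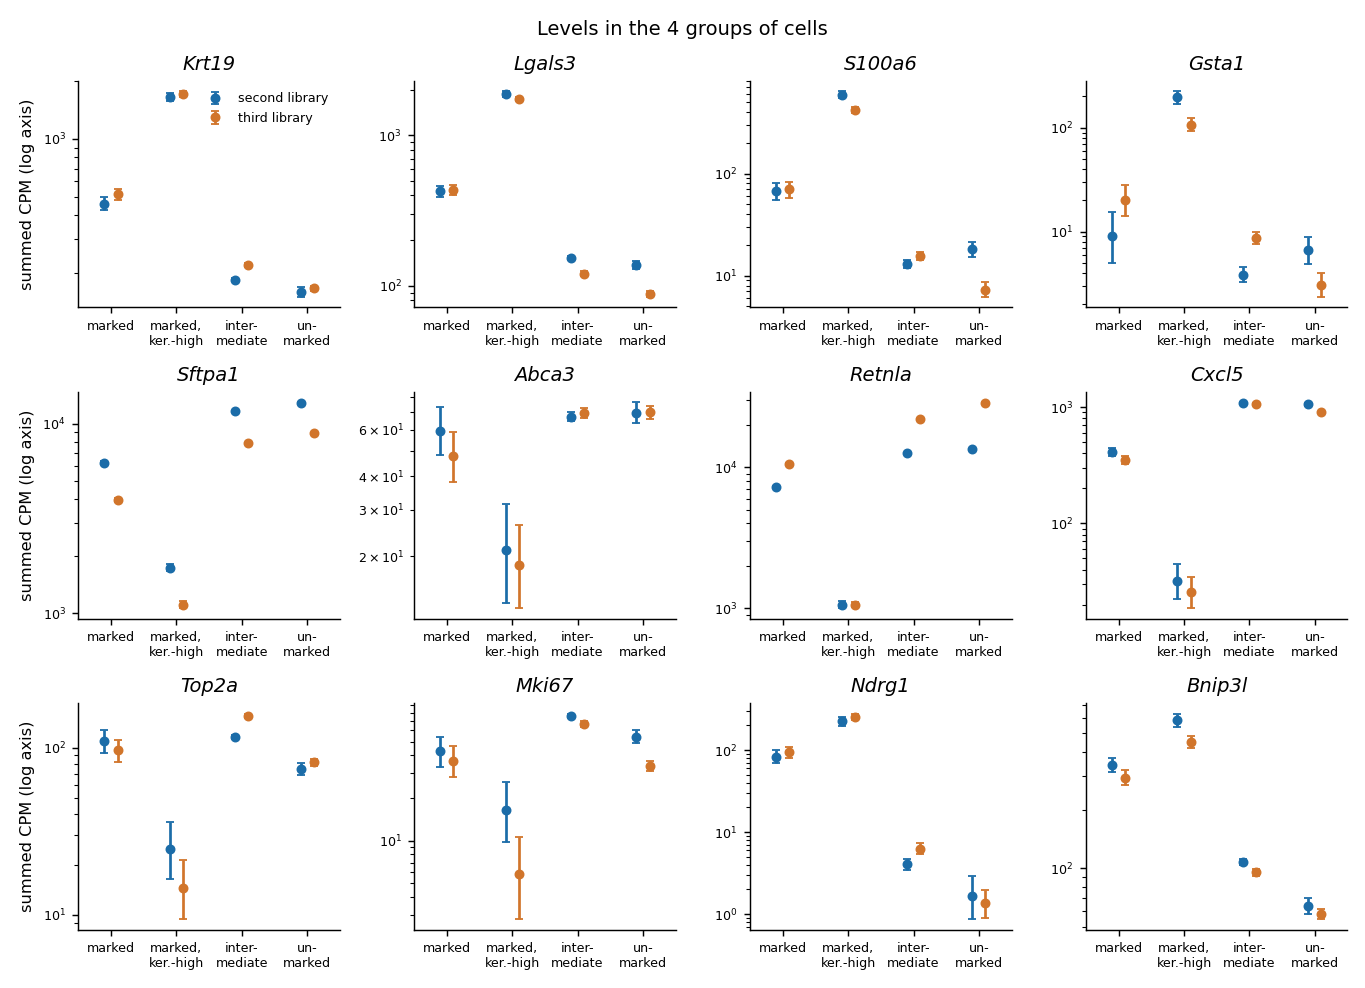
Levels (CPM, log axis) of 12 genes in hypoxia-marked, keratin-high hypoxia-marked, intermediate and unmarked cells, 1 panel per gene and 1 point per library in each group, with bars for exact 95% Poisson intervals. Ndrg1 is scarce outside the 2 marked groups, Retnla and Cxcl5 lie between the unmarked cells and the keratin-high marked cells in the hypoxia-marked cells, and Top2a is lowest in the keratin-high marked cells at 24.7 and 14.5 CPM.

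The marked and unmarked cells can also be set side by side within the keratin top 10%, a comparison added after seeing the data. There the keratin-high hypoxia-marked cells exceeded 46 and 230 unmarked keratin-high cells by the limit in 17 of 25 other HIF targets (median 1.72 and 1.82) and 11 of 17 glycolysis genes (1.20 and 1.32). Over all 4332 genes tested there, 166 (3.83%) were higher, the 6 rule genes among them, and 153 (3.53%) lower, with a median fold of -0.13 and -0.03. These cells too were picked on genes of the HIF pathway, so the counts describe the choice. The unmarked keratin-high cells held only 228281 and 614576 UMIs in all, so their levels near 20 CPM rest on few molecules. Respiratory chain genes were lower in 2 of 24 (median -0.46 and -0.60). Genes of p53 and CDK inhibition were higher in 0 of 12 and lower in 1 (median -0.37 and 0.06). NRF2 and metal response genes were higher in 2 of 15 and lower in 0 (median 0.16 and 0.23). The same list of HIF targets had medians of 1.65 and 2.03 outside the keratin top 10%, a difference between the 2 comparisons that was not tested.

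Against intermediate cells, which hold some UMIs of the 6 genes, 107 of 4534 genes (2.36%) were higher in hypoxia-marked cells in both libraries and 11 (0.243%) lower, with a median fold of all genes of 0.02 and -0.03. The 6 rule genes are among the 107. Of 25 other HIF targets 16 were higher (median 1.21 and 1.31), Ndrg1 at 83.2 and 93.6 CPM against 4.05 and 6.28 (4.06 and 3.70) and Ero1l at 649 and 450 against 131 and 78.2 (2.30 and 2.51) among them. Of the 39 listed, 25 and 28 reached 20 CPM in hypoxia-marked and 15 and 18 in intermediate cells. Some thus entered only through the hypoxia-marked cells and had to be higher. The cells were picked on genes of the same pathway, so the count describes the choice. Of 18 glycolysis genes 5 were higher (median 0.93 and 0.84), Slc2a1, Gpi1, Gapdh, Pgk1 and Bsg. In cells thinned to 1000 UMIs, 16 genes were higher in all, 4 of them HIF targets and 0 of glycolysis. Of 14 NRF2 and metal genes the same 4 were higher, with Hmox1 at 902 and 481 CPM against 114 and 76.8 (2.97 and 2.63). Of 14 integrated stress response genes 1 was higher and 1 lower, with Ddit3, which encodes CHOP, at 138 and 108 CPM against 67.6 and 27.0 (1.01 and 1.96) and Asns, asparagine synthetase, at 57.0 and 36.4 against 123 and 74.1 (-1.09 and -1.0). In the second library Ddit3 stood at -0.15 in thinned cells and at -0.12 among cells above the median Retnla share. Tgfb2, a TGF-beta ligand, was at 24.2 and 53.8 CPM against 10.7 and 25.2. Mitosis (0 of 16, median -0.39 and -0.72) and S phase genes (0 of 8, -0.52 and -0.90) did not pass in either direction.

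The hypoxia-marked cells were not uniform. Members with an Adm UMI, 99 and 128 cells with median UMIs of 6263 and 3527, were set beside the 142 and 443 without, with 5779 and 2750. Bnip3 was at 964 and 1263 CPM in members with Adm and 964 and 1456 without it. Members without Adm had to reach the cut on the other rule genes, mostly Bnip3, so the choice shapes these Bnip3 levels. Ndrg1 was at 114 and 119 CPM with Adm against 59.2 and 84.3 without, and Ero1l at 855 and 610 against 491 and 393. Mt1 was close, at 3838 and 4210 CPM with Adm against 3858 and 4523 without. Hopx was lower with Adm, at 78.3 and 134 CPM against 110 and 233, and Retnla higher, at 9323 and 15500 against 5615 and 8729. The Hopx intervals of the second library overlapped, at 58.5 to 102.7 CPM with Adm and 89.2 to 134.7 without.

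A second split followed the keratin-list RNA that remained. Members above their library's median keratin-list share (120 and 285 cells) had Krt19 at 671 and 757 CPM, against 268 and 292 in those at or below it (121 and 286 cells), which the split fixes. With it went S100a6, at 131 and 123 CPM above against 8.76 and 20.5 below, Hopx at 135 and 288 against 61.4 and 132, Hmox1 at 1317 and 631 against 523 and 341, and Ddit3 at 213 and 141 against 68.9 and 76.7. Ndrg1 was at 122 and 116 CPM above against 47.6 and 72.4 below, while Ldha was close, at 4104 and 3333 against 3489 and 3463. Slc16a3 ran the other way, at 186 and 233 CPM above against 268 and 369 below. Retnla was at 3041 and 5570 CPM above against 11040 and 15090 below, Cxcl5 at 117 and 162 against 684 and 529, and Sftpc at 83220 and 68380 against 106100 and 89940. Hypoxia-marked cells with a higher keratin-list share thus held more Hmox1, Ddit3 and Ndrg1 and less Retnla, Cxcl5 and Sftpc in both libraries. The rule had already capped the range of that share.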

How the data were processed

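The authors deposited 1 matrix of whole-number UMI counts per gene and cell barcode, 52636 genes by 36584 barcodes, from libraries made with the 10x Genomics 3′ kit v3.1 and cell multiplexing, per the labels' protocols. Cell Ranger 6.0.1 and bcl2fastq are named in the submitters' processing notes beside the builds mm10 and GRCm38, while cell calling, doublet removal and demultiplexing are not given in the sources used here. The 3 libraries hold 16367, 5594 and 14623 barcodes, median UMIs 3749, 8348.5 and 3336, and all but the first were used, as the rule has it. The tag libraries were not analysed here. Gene symbols were matched for 52403 IDs, and the 233 others hold 0.0209% of UMIs.

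Cells with at least 1000 UMIs were kept, no doublet caller was run and doublets were not removed. Counts were summed by group within a library and scaled to CPM. Log2 folds use 1 CPM added to each level, and a gene was called when its fold reached 2 in the same direction in both libraries and its level reached 20 CPM in either group in both. Intervals are exact Poisson for levels, exact conditional binomial for ratios (with nothing added, so they need not centre on the fold) and Clopper-Pearson for shares. The libraries match no label and their cells are not replicates, so no statistical test was run. The 44 lists comprise 25 of pathways and 19 of cell type markers. The members and the lists were chosen with earlier results of these data known, and a list count is no independent support. Named genes are the 6 rule genes, list genes past the limit, and the 12 highest and 12 lowest other genes at 50 CPM or more ranked by the smaller of their folds in the 2 libraries. List genes that missed the limit are given by value only, and genes with near-identical copies are less certain. For 1 HIF target, which stays in the list's counts and medians, the values are not reported here. The calling code was tested on simulated data. The alternatives concerned the added CPM, the minimum level, TMM scaling, the UMI minimum, the 8% and 10% cuts, thinning to 1000 UMIs, random 50% splits of UMIs, single genes left out of the rule, cycling or high-UMI cells left out, cells split by Retnla, and unmarked cells weighted to the depth of the marked cells. Weighting to the keratin level, leaving out shared barcodes, the splits among the marked cells and the comparison within keratin-high cells were added after seeing the data. Python 3.11.15 with numpy 2.4.6, pandas 2.3.3, scipy 1.17.1 and matplotlib 3.10.9 was used, and R 4.3.3 with edgeR 4.0.16 gave the TMM factors.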

Additional observations from a re-analysis of the deposited data

Results flagged for a closer look

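The first library, which took no part in the comparisons, held RNA of all 6 genes of the rule above the 0.0471 CPM that a count of 0 allows (3 counts over the library). Summed over its cells, Vegfa stood at 102 CPM, Bnip3 at 43.4, Ankrd37 at 9.38 and Adm at 1.65. Slc16a3, at 0.346 CPM, and Egln3, at 0.157, were close to that limit. In this library 32 cells (0.195%) had a summed share of the 6 genes above the cut of the second library and 3 (0.0183%) above that of the third. No control cells lacking these genes were at hand, and the difference between the libraries was not tested.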

How the results depend on the processing

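For single genes, 106 log2 folds were read again over 25 settings, which gave 2234 values. Of these, 1444 stayed within the counting interval of the reported fold and 782 moved outside it. The other 8 changed sign, which was counted only for genes past the limit in that library as reported. Counts of genes were instead taken to have stayed when within 1.5 times of the reported count. Genes higher in hypoxia-marked than in unmarked cells, 157 as reported, numbered 95 at a 50 CPM minimum, 286 with no minimum, 56 in thinned cells and 67 without Bnip3 in the rule. Genes lower, 11 as reported, numbered 5 with 5 CPM added, 5 at 50 CPM, 103 with no minimum, 0 among cells of 3000 or more UMIs, 58 and 1 at a 5% and a 12% cut, 6 with the keratin top 20% left out, 2 in thinned cells, 7 when cells were chosen on a random 50% of UMIs, 17 as means over cells, 27 among cells low in Retnla, 4 after keratin weighting (added after seeing the data), 1 without Bnip3 and 31 without Slc16a3. Against keratin-high hypoxia-marked cells, the 119 higher genes numbered 59 at 50 CPM, 534 with no minimum, 78 without cycling cells and 75 among cells low in Retnla, and the 54 lower genes 141 with no minimum, 87 at 3000 UMIs, 85 at a 12% cut, 83 at keratin top 20%, 100 in thinned cells and 35 in cells low in Retnla. Against intermediate cells, the 107 higher genes numbered 66 at 50 CPM, 184 with no minimum, 71 at 3000 UMIs, 66 at a 12% cut, 66 at keratin top 20%, 16 in thinned cells and 48 in cells high in Retnla. The 11 lower genes there numbered 6 with 5 CPM added, 5 at 50 CPM, 101 with no minimum, 4 at 3000 UMIs, 65 and 2 at a 5% and a 12% cut, 6 at keratin top 20%, 2 in thinned cells, 7 without the cells of most UMIs and 40 in cells low in Retnla. Higher HIF targets over unmarked cells ranged from 9 to 23 and glycolysis genes from 4 to 14, and the 4 stress genes from 3 to 4. Against keratin-high hypoxia-marked cells, mitosis genes ranged from 0 (without cycling cells) to 18, ATII genes from 5 to 9, IL-4 and IL-13 genes from 2 to 6 and inflammatory genes from 6 to 10. Over intermediate cells, HIF targets ranged from 4 to 19 and glycolysis genes from 0 to 7.

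Sign changes are listed only for genes past the limit in that library as reported. The sign changed for Lyz2 over keratin-high cells in the second library at keratin top 20% (-1.07), Ddit3 over intermediate cells there in thinned cells (-0.15) and in cells high in Retnla (-0.12), and Mki67 over keratin-high cells there without cycling cells (-0.17). It also changed for S100a6 (-1.61) and Hopx (-0.60) over unmarked cells in the third library among cells high in Retnla, for Retnla itself there among cells low in it (0.05), and for S100a6 in the second library after keratin weighting (-0.13). Thinning leaves fewer UMIs to choose by, and a higher minimum tests fewer genes; the cause of the other changes was not tested. The comparison with keratin-high cells among cells high in Retnla had 3 and 8 such cells and gave no value. No paired analysis was possible because no test was run and the barcodes carry no replicate number.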

Other observations

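Some genes differed more between hypoxia-marked and unmarked cells in 1 library than in the other. Nupr1, a stress-induced chromatin protein, stood at 3139 and 1704 CPM in hypoxia-marked cells, against 3347 and 435 in unmarked cells (-0.09 and 1.97), and Ddit3 at 138 and 108 CPM against 69.9 and 23.6 (0.97 and 2.14). Ftl1, the ferritin light chain, differed by 0.55 and 1.46. Of the genes tested in both libraries, 49 passed the limit upwards in the second library only and 93 in the third only, and 0 genes passed it in opposite directions. These differences between libraries were not tested, and the day, age and treatment of the cells cannot be told apart in them. These genes were chosen after their values were seen.

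Rgs4 was placed between the other groups: 65.5 and 57.7 CPM in hypoxia-marked cells and 11.9 and 1.74 in keratin-high hypoxia-marked cells, against 210 and 169 in unmarked cells. Retnla, Cxcl5 and Sftpa1 kept the same order in both libraries.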
